A study of Anthurium andraeanum with 18 samples.

Results

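Of the 132108 genes assembled de novo from leaves of Anthurium andraeanum, 322 were named in the deposited annotation as the Pol polyprotein of the TNT 1-94 transposon, and they are described here across 2 cultivars and 3 temperatures. A gene entered the set when the protein name given by its best Swiss-Prot match contained the words "Retrovirus-related Pol polyprotein from transposon TNT 1-94", and expression played no part in the choice. Plants in full flower stood in growth chambers with 12 h of light a day. Cold plants were cooled in steps of 3 days each, first to 15 °C, next to 6 °C and last to 4 °C, and leaves were compared after the 6 °C and the 4 °C step. Control plants were kept at 25 °C throughout, per the labels' protocols. The control libraries carry a time label of 0 days, against 3 days in the cold, so they may come from an earlier day. For the cultivar Oregon this label conflicts with the sample names, where its 25 °C libraries are marked with 3 days, like the cold ones. Whether the Oregon controls were taken earlier is therefore unclear. The 25 °C libraries of the cultivar Fantasy love are named as controls, with no day given. The cultivars Fantasy love and Oregon were each sampled in 3 libraries per temperature, which made 6 groups and 18 libraries. The 4 °C leaves had already passed through 6 °C, so the lower temperature and the longer cooling cannot be told apart. The libraries are labelled as biological replicates, but the number of plants behind each is not stated, so the p-values cover variation among these libraries, which may be partly technical.

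Tnt1 is a Copia-type retrotransposon first isolated from tobacco. Such an element moves through an RNA copy: one long polyprotein supplies the gag capsid protein, a protease, the integrase that inserts new copies, and the reverse transcriptase with its RNase H that turns RNA into DNA. Plants normally keep these elements silent through DNA methylation and small RNAs. Tnt1 transcripts are known to appear in tobacco after wounding and treatment with microbial elicitors, and the Arabidopsis Copia element ONSEN is known for its transcription in heat. A transcript level shows neither a new insertion nor a working element.

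The 322 genes differed in which domains of the polyprotein were annotated. Each gene was placed by its annotated Pfam domains in a single class, with reverse transcriptase taken before integrase and integrase before gag. Reverse transcriptase was found in 170 genes, integrase without it in 45 and gag without either in 27. Of the rest, 17 had another domain and 63 had none. A gene classed by reverse transcriptase or integrase may hold further domains of the polyprotein, which were not counted. The assembled lengths ran from 202 to 6281 bases with a median of 533.5, against a median of 316 for all genes. Just 9 reached 4000 bases. The members came from 230 assembly components, and 157 shared a component with another member, so closely related copies may have exchanged reads and single-gene values are uncertain to that extent. The name fitted the rest of the annotation for 315 members, which mention a retroelement or one of its domains elsewhere. It did not for 7, and 2 of these were among the 10 members with the highest mean count. DN43016_c0_g2 was annotated elsewhere as resembling SHORT ROOT IN SALT MEDIUM 1, a salt-tolerance protein of Arabidopsis, and DN45291_c2_g1 as resembling a protein with a B3 DNA-binding domain.

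Library totals ran from 14769928 to 21911055 estimated counts. Levels below are CPM, counts in proportion to the library total after scaling with TMM factors that were 0.825 to 0.869 at 25 °C and 0.874 to 1.251 in the cold. CPM does not correct for transcript length, so levels are compared between libraries and not between genes. Replicate 2 of Fantasy love at 6 °C had the fewest detected, at 59650 genes and 192 members, against 66064 to 98535 and 204 to 265 elsewhere. Several results resting on it are also given without it, but class sums, overlap counts and correlations are given only with it. The summed level of 44 genes whose names mention ribosomal RNA, by number mostly processing and methylating enzymes with 5 named for TAR1, ranged from 2158 to 22172 CPM in that group and was highest in this library. Most of that level came from the TAR1 gene DN57368_c1_g4. In Fantasy love at 6 °C it held 7839 ± 11283 CPM (SD, n = 3) of a sum of 8855 ± 11534 CPM. Among the 36 tested, Oregon had 3 rises and 5 falls at 6 °C and 6 of each at 4 °C, and Fantasy love had 10 rises and 3 falls at 6 °C and 11 and 2 at 4 °C. Chlorophyll-binding and RuBisCO small chain genes, 26 in all, marked the tissue as leaf at 80153 CPM in Oregon and 84434 CPM in Fantasy love at 25 °C. They fell to between 4581 and 9848 CPM in the 4 cold groups, with 15 or 16 of the 17 tested genes lower in each and 1 higher in Oregon at 4 °C. The 8 genes named for pollen were summed at 151 to 235 CPM, and of the 8 tested 1 rose and 3 fell, 1 rose and 4 fell, 3 rose and 2 fell, and 2 rose and 4 fell, in the same order of groups. The part of these shifts in the results below was not tested. In bulk leaf RNA, fewer cells of a type and less RNA per cell cannot be told apart.

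The summed level of all 322 members moved in opposite directions in the cultivars. In Oregon it was 717 ± 64.3 CPM (SD, n = 3) at 25 °C, 900 ± 82.3 CPM at 6 °C and 823 ± 50.2 CPM at 4 °C. In Fantasy love it was 1245 ± 145 CPM at 25 °C, 588 ± 37.0 CPM at 6 °C and 589 ± 46.4 CPM at 4 °C, and 602 CPM at 6 °C without replicate 2. The Fantasy love control libraries, at 1097 to 1387 CPM, lay above every other library, and the cold Fantasy love libraries, at 537 to 629 CPM, lay below every Oregon library, but only on this scale. As unscaled CPM of the raw total, Fantasy love at 4 °C, at 671 to 742, lay above the Oregon controls at 536 to 663, and the lowest Fantasy love control, at 952, lay below Oregon's highest 6 °C library at 997. In Oregon the control libraries at 644 to 763 CPM did not overlap the cold ones, which began at 789 CPM. Over the 315 members whose other annotation mentions a retroelement, these groups overlapped, with controls at 539 to 643 CPM and cold libraries from 606 CPM. The full sum rests on few genes: in each group 5 members held 48.5% to 65.7% of it. DN43016_c0_g2, whose other annotation names no retroelement, was the largest in all 4 cold groups, at 16.9% to 27.5%. Without the 10 members of highest mean the sums were 299, 410 and 364 CPM in Oregon and 381, 223 and 281 CPM in Fantasy love, from 25 to 6 to 4 °C. There the Fantasy love 4 °C libraries, at 242 to 308 CPM, overlapped the Oregon controls at 258 to 323 CPM.

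**Figure D1:**
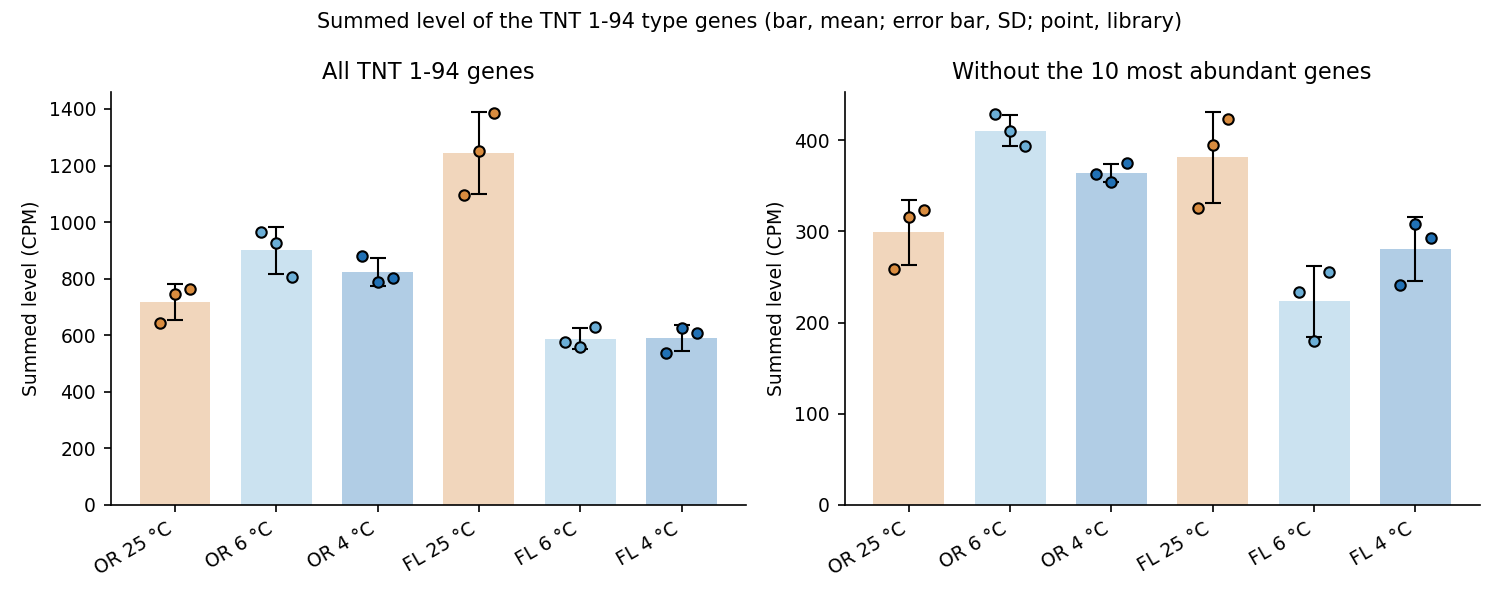
Summed level of the 322 TNT 1-94 members in CPM for each library, and beside it without the 10 members of highest mean, by cultivar (OR, Oregon, and FL, Fantasy love) and temperature. Points are libraries, bars the means of 3 and error bars the SD. In the full set Fantasy love fell from a mean of 1245 CPM at 25 °C to 588 and 589 CPM in the cold, while Oregon went from 717 to 900 and 823 CPM.

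The classes did not move alike. Integrase members fell in sum from 367 CPM at 25 °C to 54.0 CPM at 6 °C and 64.3 CPM at 4 °C in Fantasy love, and stood at 196, 162 and 178 CPM in Oregon. Reverse transcriptase members fell in sum from 658 to 306 and 307 CPM in Fantasy love, and stood at 333, 485 and 408 CPM in Oregon. Gag members were lower in the cold in both, at 53.4, 14.3 and 18.8 CPM in Fantasy love and 41.3, 28.5 and 23.8 CPM in Oregon. These sums are descriptions and carry no test. A mean of at least 1 CPM was reached by 66, 99 and 88 members in Oregon at 25, 6 and 4 °C (20.5%, 30.7% and 27.3%), where all genes gave 20.3%, 22.8% and 22.6%. In Fantasy love it was 67, 76 and 83 (20.8%, 23.6% and 25.8%), where all genes gave 20.8% at 25 °C and 22% in both cold groups. The difference from all genes was not tested.

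Of the 322 members, 196 had enough counts to be tested and 126 did not, among which the highest mean level was 0.318 CPM. The tested members held 98.2% of the members' counts and were longer, with a median of 890.5 bases against 267. Counts over these 196 do not stand for all members, since a gene high in a single group passes through that group. A gene was called when edgeR's quasi-likelihood test gave an adjusted p below 0.05 over all 51671 genes tested and an absolute log2 fold change of at least 1.

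In Oregon at 6 °C, 67 members rose (34.2%), where 28.3% of all genes rose, and 26 fell (13.3%), where 20.1% of all genes fell. In Oregon at 4 °C, 58 rose (29.6%; all genes 28.4%) and 31 fell (15.8%; all genes 20.6%). Fantasy love at 6 °C had 45 rises (23.0%; all genes 23.8%) and 36 falls (18.4%; all genes 16.6%), or 53 and 35 without its replicate 2. Fantasy love at 4 °C had 56 rises (28.6%; all genes 28.5%) and 34 falls (17.3%; all genes 21.6%). Apart from the Oregon 6 °C rises and falls, these shares lie within 5 percentage points of the background. The median log2 change of the members was 0.93 in Oregon at 6 °C, 0.90 at 4 °C, and 0.38 and 0.66 in Fantasy love, against 0.36, 0.39, 0.30 and 0.39 over all genes.

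The balance of rises and falls depended on the method. With quantile normalisation and limma in place of TMM and edgeR, Oregon at 6 °C had 48 rises (24.5%; all genes 23.8%) and 34 falls (17.3%; all genes 23.6%), and at 4 °C 47 (24.0%; all genes 24.6%) and 39 (19.9%; all genes 23.4%). In Fantasy love falls then outnumbered rises, with 31 rises (15.8%; all genes 19%) and 44 falls (22.4%; all genes 20%) at 6 °C, and 42 (21.4%; all genes 25.8%) and 44 (22.4%; all genes 23.6%) at 4 °C. The members' median then lay 0.13, 0.08, -0.22 and 0.01 from that of all genes, where TMM with edgeR gave 0.57, 0.51, 0.08 and 0.27, and the median in Fantasy love at 6 °C went from 0.38 to -0.18. This alternative changed scaling and test together. DESeq2's size factors, which changed scaling alone, gave 0.56, 0.51, 0.08 and 0.27.

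**Figure D2:**
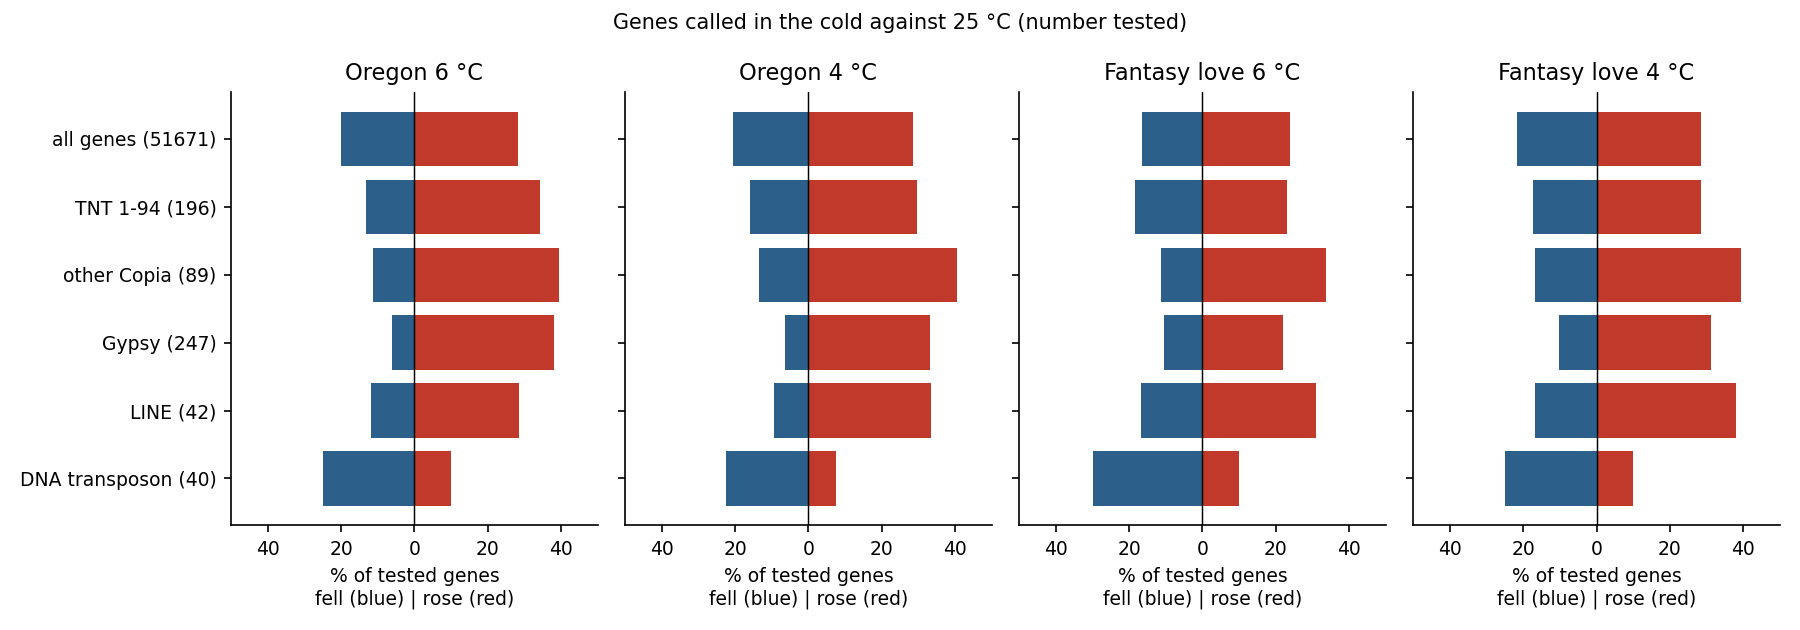
Percent of tested genes that rose or fell against 25 °C in each cultivar and cold step, for all genes (51671), TNT 1-94 members (196), other Copia-type (89), Gypsy-type (247), LINE-type (42) and DNA transposon genes (40). The TNT 1-94 shares stay close to those of all genes except in Oregon at 6 °C, where 34.2% rose.

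Shares by class are read against the same background. Of all genes, 28.3%, 28.4%, 23.8% and 28.5% rose and 20.1%, 20.6%, 16.6% and 21.6% fell, in Oregon at 6 and 4 °C and Fantasy love at 6 and 4 °C. Of 35 integrase members, 15 rose (42.9%) and 4 fell (11.4%) in Oregon at 6 °C, and 13 (37.1%) and 3 (8.57%) at 4 °C. In Fantasy love it was 9 (25.7%) and 7 (20%) at 6 °C, and 12 (34.3%) and 5 (14.3%) at 4 °C. Of 114 reverse transcriptase members, 39 rose (34.2%) and 13 fell (11.4%), 30 (26.3%) and 17 (14.9%), 24 (21.1%) and 19 (16.7%), and 28 (24.6%) and 17 (14.9%) in the same order. The reverse transcriptase rises lay above the 28.3% of all genes in Oregon at 6 °C. They lay below the 28.4% in Oregon at 4 °C and the 23.8% and 28.5% in Fantasy love, by under 5 percentage points each. These differences were not tested. The 15 gag members split 5 and 5 in both Oregon steps (33.3% each way). In Fantasy love they split 1 and 6 at 6 °C (6.67% and 40%) and 5 and 6 at 4 °C (33.3% and 40%). The shares of gag falls and of integrase rises lay above those of all genes in each cold group. They rest on 15 and 35 genes and were not tested either. The integrase class fell in sum in Fantasy love although more of its members rose than fell, and DN32211_c0_g2 held most of that sum at 25 °C.

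Some of the members with the highest counts at 25 °C fell. DN32211_c0_g2, an integrase member of 921 bases, stood at 102, 129 and 129 CPM in Oregon at 25 °C, 0.905, 1.01 and 1.18 CPM at 6 °C and 0.778, 0.513 and 0.956 CPM at 4 °C. In Fantasy love it went from 224, 287 and 343 CPM to 4.68, 7.6 and 2.02 CPM and then 1.5, 2.59 and 1.11 CPM. Every cold library lay far below every control library. The log2 change was -6.84 ± 0.45 (SE) and -7.32 ± 0.46 in Oregon and -5.90 ± 0.42 and -7.37 ± 0.45 in Fantasy love, with adjusted p from edgeR's quasi-likelihood test of 4.42e-09, 3.13e-09, 1.61e-08 and 1.79e-09.

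DN57430_c0_g1, a reverse transcriptase member of 1931 bases, behaved in the same way but from a higher start in Fantasy love. It measured 35.6, 48 and 45.7 CPM in Oregon and 164, 207 and 224 CPM in Fantasy love at 25 °C. In the cold it measured 0.348 to 0.957 CPM over the 6 Oregon libraries and 5.48 to 11.1 CPM over the 6 Fantasy love libraries. The groups did not overlap, and the mean fell 70.8-fold and 62.9-fold in Oregon and 21.9-fold and 29.1-fold in Fantasy love (edgeR adjusted p 1.33e-09, 1.42e-09, 1.1e-08 and 2.5e-09). Fantasy love stood 4.60-fold above Oregon at 25 °C, 14.9-fold at 6 °C and 9.96-fold at 4 °C (edgeR adjusted p 2.28e-05, 6.32e-07 and 2.05e-06). A gene of the same Trinity read cluster, DN57430_c1_g1, is named for the yeast Ty1-A element and fell from 54.7 CPM to 1.18 and 1.30 CPM in Fantasy love.

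Several reverse transcriptase members fell to almost no reads. DN56141_c1_g1 measured 12.1, 16.2 and 13.1 CPM in Oregon and 28.7, 32 and 34.5 CPM in Fantasy love at 25 °C. All 6 Oregon cold libraries and the 3 Fantasy love libraries at 4 °C lay at 0 to 0.142 CPM, while at 6 °C Fantasy love gave 0.335, 5.09 and 0.218 CPM, the high one being replicate 2. In Fantasy love the log2 change was -4.10 ± 0.79 at 6 °C and -8.58 ± 1.06 at 4 °C, and in Oregon at 6 °C it was -7.47 ± 1.06 (edgeR adjusted p 0.000448, 3.33e-06 and 1.64e-05). Leaving out 1 library moved these folds by over 1.5 times, to -6.84 in Fantasy love without replicate 2 at 6 °C, to -8.60 in Oregon without replicate 3 at 6 °C and to -9.20 in Fantasy love without replicate 3 at 4 °C.

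DN38840_c0_g5 and DN56437_c1_g8 gave no reads at all in some cold groups. DN38840_c0_g5 measured 3.29, 6.35 and 11.5 CPM in Fantasy love at 25 °C and 0 in all 6 cold libraries, at least 118-fold lower at 6 °C and 147-fold at 4 °C with the cold group set to 3 counts in all. DN56437_c1_g8 measured 2.39, 3.48 and 2.39 CPM in Oregon at 25 °C and 0 in all 6 cold libraries, at least 51.5-fold and 60.4-fold lower. DN41648_c2_g1, of 3976 bases, measured 15.1, 27.4 and 29.2 CPM in Fantasy love at 25 °C, 0.0558, 0.901 and 0 CPM at 6 °C and 0.0935, 0 and 0.0825 CPM at 4 °C. Its log2 change was -6.27 ± 0.88 and -8.46 ± 1.02 (edgeR adjusted p 3.52e-05 and 4.72e-06), and -9.48 at 6 °C without replicate 2.

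Some members with low counts at 25 °C rose. A large rise needs a low start and a large fall a higher one, so the starting levels of members named for large changes are no separate result. DN55514_c0_g1, a reverse transcriptase member of 2428 bases, measured 2.95, 3.42 and 3.86 CPM in Oregon at 25 °C, 164, 154 and 101 CPM at 6 °C and 53.7, 56.9 and 32.7 CPM at 4 °C. In Fantasy love it measured 1.7, 1.45 and 2.85 CPM, then 6.13, 3.41 and 32.5 CPM, then 8.65, 23.6 and 21.2 CPM. The control and cold libraries did not overlap in either cultivar, and replicate 3 of Fantasy love at 6 °C stood well above the other 2. Its log2 change was 5.35 ± 0.67 and 3.81 ± 0.63 in Oregon and 2.82 ± 0.62 and 3.16 ± 0.63 in Fantasy love (edgeR adjusted p 4.12e-06, 7.49e-05, 0.00138 and 0.000398). Without replicate 3 the Fantasy love value at 6 °C was 1.22.

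DN49740_c0_g1, an integrase member of 2398 bases, rose mostly in Oregon. It measured 1.82, 1.32 and 2.39 CPM at 25 °C, 99.8, 79 and 52.2 CPM at 6 °C and 162, 65.5 and 70.1 CPM at 4 °C there. Fantasy love gave 0.274, 0.431 and 0.316 CPM at 25 °C and 0.451 to 2.62 CPM in its 6 cold libraries. The mean rose 41.7-fold and 53.7-fold in Oregon and 4.64-fold and 5.32-fold in Fantasy love (edgeR adjusted p 1.5e-07, 8.96e-08, 0.00403 and 0.0015). The response itself differed between the cultivars, by a log2 of -3.18 at 6 °C and -3.36 at 4 °C (adjusted p 0.0143 and 0.00922). Without replicate 3 of Fantasy love at 6 °C, the log2 rise there was 1.60 and the difference at 6 °C -3.78, and without replicate 2 of its controls that difference was no longer called, at -2.96.

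DN42908_c0_g3, a long reverse transcriptase member of 4436 bases, gave no reads in the Fantasy love controls. It measured 1.39, 3.48 and 7.96 CPM at 6 °C and 1.08, 4.5 and 5.19 CPM at 4 °C in that cultivar, at least 76.1-fold and 63.6-fold higher. Oregon went from 0.281, 0.0599 and 0.532 CPM to 13.3, 16 and 11.7 CPM and then 13.8, 7.98 and 6.3 CPM, with a log2 change of 5.54 ± 0.80 and 5.0 ± 0.79 (edgeR adjusted p 2.96e-05 and 7.01e-05), and of 6.28 and 5.74 without replicate 3 of the controls. Of the members with no reads in Oregon at 25 °C, DN37081_c1_g8 was at least 38.9-fold higher at 6 °C and 32.0-fold at 4 °C, and DN40004_c1_g1, an integrase member, at least 30.1-fold and 22.1-fold. DN50955_c0_g4 was at least 21.8-fold and 25.2-fold higher, and DN41930_c3_g6 at least 62.9-fold at 4 °C.

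Part of the called rises started from almost no counts at 25 °C. Among those called, the 25 °C group held no counts for 7, 9, 12 and 10 members and 1 to 3 counts for 10, 11, 10 and 9, in Oregon at 6 and 4 °C and Fantasy love at 6 and 4 °C. Their fold changes are therefore bounds or wide intervals. The same count was not made over all called genes. A gene scarce at 25 °C passes the filter through a group where it is higher, so these starts are not read as a trait of the members. The called groups did not overlap for 67 of 67, 57 of 58, 29 of 45 and 48 of 56 rises (64.4% and 85.7% in Fantasy love), where all called genes gave 98.5%, 98%, 74.7% and 92.8%. They did not overlap for 26 of 26, 31 of 31, 35 of 36 and 33 of 34 falls, where all called genes gave 98.7%, 98.6%, 95.2% and 97.1%.

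**Figure D3:**
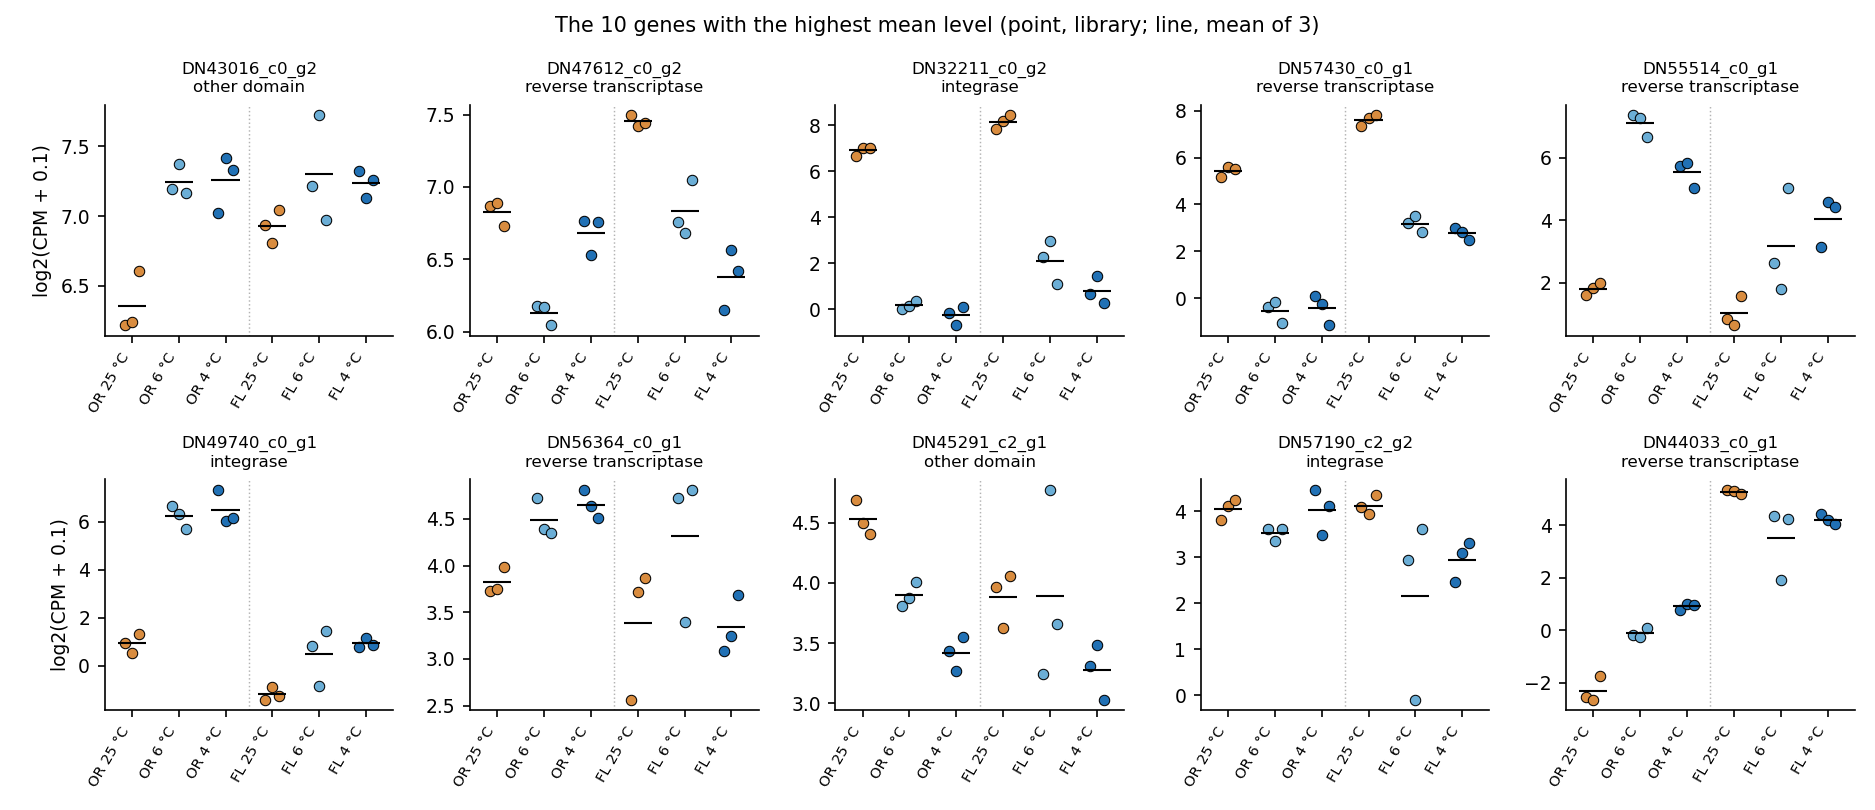
Level of the 10 members with the highest mean CPM, on a log2(CPM + 0.1) axis, for Oregon (OR) and Fantasy love (FL) at 25, 6 and 4 °C; points are libraries and lines the means of 3. DN32211_c0_g2 and DN57430_c0_g1 drop in the cold in both cultivars, DN55514_c0_g1 and DN49740_c0_g1 climb, and DN43016_c0_g2 and DN47612_c0_g2 stay within a narrow range.

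Other members with high counts moved little. DN47612_c0_g2, a reverse transcriptase member of 4647 bases, measured 106 to 119 CPM in Oregon at 25 °C and 65.9 to 109 CPM in the cold. In Fantasy love it measured 171 to 180 CPM and 70.9 to 132 CPM. It was called lower only in Fantasy love at 4 °C, at a log2 of -1.07 ± 0.17 (edgeR adjusted p 4.48e-05), and missed the fold minimum under quantile normalisation at -0.98. DN43016_c0_g2, the gene resembling SHORT ROOT IN SALT MEDIUM 1, was not called, with log2 values of 0.88, 0.90, 0.40 and 0.31, and its rise at 4 °C in Oregon was called once replicate 3 of the 25 °C group was left out. DN45291_c2_g1 was called lower only in Oregon at 4 °C, at -1.12 (edgeR adjusted p 0.00474), a call lost under quantile normalisation at -0.82. DN57190_c2_g2, an integrase member, was called only in Fantasy love at 6 °C, at -1.34 (edgeR adjusted p 0.044), a call lost without any 1 of the 6 libraries except replicate 3 at 6 °C. It stood at -0.85 without replicate 2 at 6 °C and at -2.10 without replicate 3.

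The cultivars shared part of the response. At 6 °C, 25 members rose in both, which is 37.3% of Oregon's rises and 55.6% of Fantasy love's, where all genes gave 56.4% and 67.1%. Falls in both numbered 18, or 69.2% of Oregon's and 18 of 36 in Fantasy love, where all genes gave 56.5% and 68.5%. At 4 °C, 31 rose in both (53.4% and 55.4%; all genes 66.2% and 66.0%) and 21 fell in both (67.7% and 61.8%; all genes 69.8% and 66.6%). Members called in opposite directions numbered 4 at 6 °C (2.04%; all genes 0.633%) and 6 at 4 °C (3.06%; all genes 0.555%). Across the 196 members, which are not independent replicates, the log2 changes of the cultivars correlated at r = 0.589 at 6 °C and 0.650 at 4 °C, and across all genes at 0.685 and 0.733. In all 4 cold groups together, 19 members rose (9.69%; all genes 13.1%) and 16 fell (8.16%; all genes 9.53%).

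**Figure D4:**
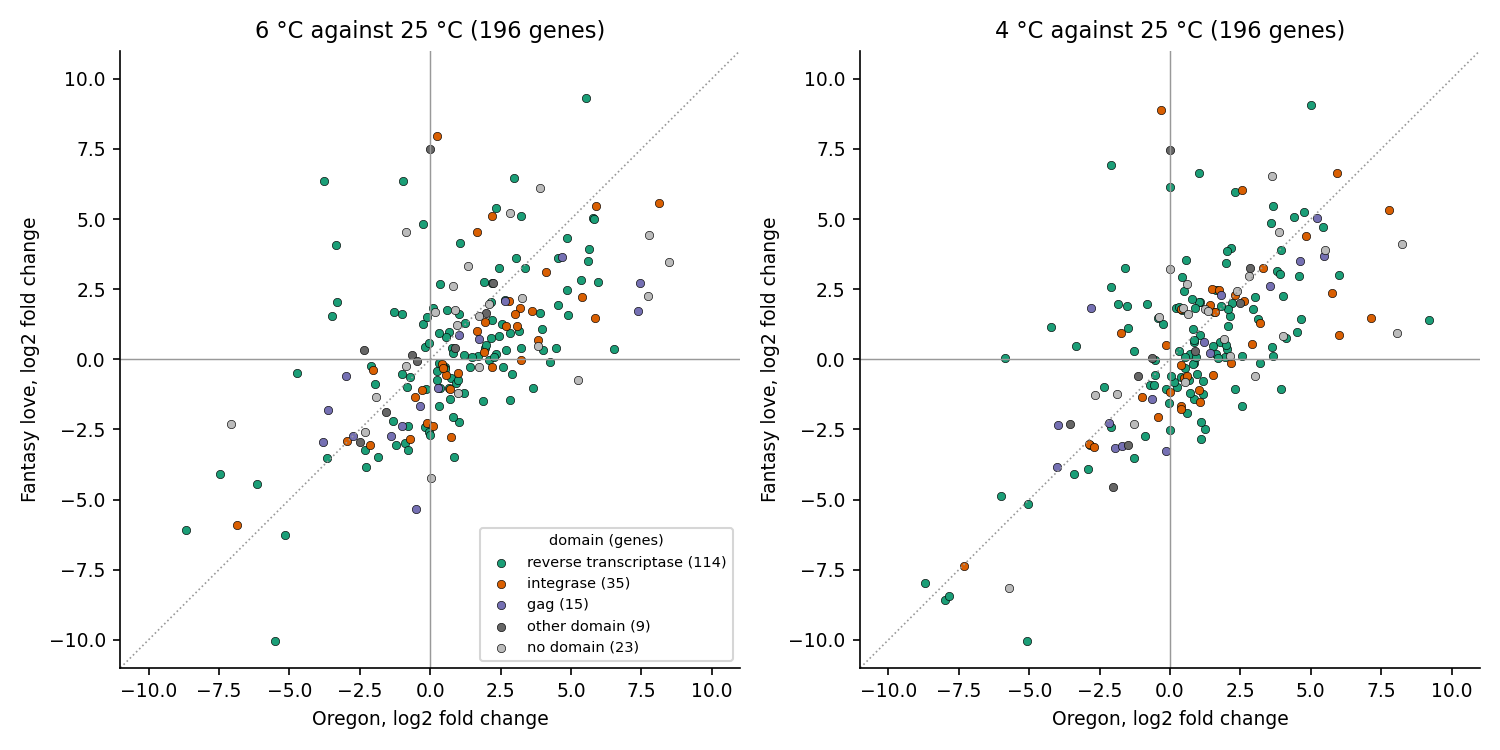
Log2 fold change against 25 °C of the 196 tested members in Oregon (horizontal) and Fantasy love (vertical) at 6 °C and at 4 °C, coloured by domain class. Points follow the diagonal loosely (r = 0.589 and 0.650), with members off it in both directions.

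At 25 °C the cultivars differed in 38 members, 18 higher in Fantasy love (9.18%; all genes 8.35%) and 20 lower (10.2%; all genes 7.04%). At 6 °C, 24 were higher (12.2%; all genes 12.1%) and 41 lower (20.9%; all genes 11.3%), or 21 and 40 without replicate 2 of Fantasy love. At 4 °C, 23 were higher (11.7%; all genes 8.95%) and 26 lower (13.3%; all genes 10.2%). The median log2 difference was 0.15, -0.87 and -0.49, where all genes gave 0, 0 and -0.02. The share of members lower in Fantasy love at 6 °C was the one furthest above the background. It was not particular to the members: of 247 Gypsy-type genes tested, 55 were lower there (22.3%), at a median log2 of -0.86. Other Copia-type genes gave 11.2% lower, LINE-type genes 11.9% and DNA transposon genes 5%. These differences were not tested.

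Single members differed far more. DN44033_c0_g1, a reverse transcriptase member of 5381 bases, measured 40.7, 39.3 and 36 CPM in Fantasy love and 0.0702, 0.0599 and 0.2 CPM in Oregon at 25 °C. The mean was 352-fold higher in Fantasy love, from 5 Oregon counts in all, at a log2 of 8.39 ± 0.62 (edgeR adjusted p 8.32e-08), and 9.07 without replicate 3 of Oregon. Cold brought the levels closer: Oregon rose to 0.73 to 1.9 CPM, 7.46-fold at 6 °C and 16.2-fold at 4 °C (log2 2.84 and 3.95, or 3.50 and 4.62 without replicate 3 of its controls), while Fantasy love fell to 20.1, 3.67 and 18.8 CPM and then 21, 18.1 and 16.3 CPM. The low Fantasy love value at 6 °C was replicate 2. The falls were called at log2 values of -1.44 and -1.06 (edgeR adjusted p 0.00725 and 0.030), and the first was lost when the groups compared were fitted alone. The second was lost without replicate 2 or 3 at 4 °C, without replicate 1 at 25 °C, and under quantile normalisation at -0.83.

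DN56914_c1_g1, with reverse transcriptase and 3961 bases, also converged. It measured 1.4, 2.04 and 1.8 CPM in Oregon at 25 °C and 9.75, 10.7 and 10.2 CPM at 4 °C, and in Fantasy love 24.1, 22.9 and 22.7 CPM and then 8.51, 6.08 and 7.17 CPM. At 25 °C it was 13.3-fold higher in Fantasy love, and by 4 °C the Oregon libraries were the higher ones. The log2 change at 4 °C was 2.54 in Oregon and -1.68 in Fantasy love (edgeR adjusted p 4.27e-05 and 0.00102), and the responses differed by -4.22 ± 0.54 (adjusted p 0.000126).

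DN53483_c1_g1, a reverse transcriptase member of 4317 bases, was an Oregon transcript at every temperature. Oregon gave 5.69 to 7.85 CPM at 25 °C, 13.3 to 15.8 CPM at 6 °C and 14 to 26.1 CPM at 4 °C, and Fantasy love gave 0.0545 to 0.948 CPM over its 9 libraries. It was 51.0-fold, 33.8-fold and 28.2-fold lower in Fantasy love at 25, 6 and 4 °C (edgeR adjusted p 8.44e-06, 8.9e-06 and 8.65e-06), with log2 values of -5.65, -5.05 and -4.82. Leaving out replicate 3 of Fantasy love at 25 °C gave -6.34, and leaving out replicate 1 at 6 °C gave -6.51.

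DN48818_c1_g1 was the reverse of this. It had no reads in any Oregon library and measured 3.46, 4.04 and 5.38 CPM in Fantasy love at 25 °C, at least 65.0-fold higher. It fell in the cold to 0.279, 1.29 and 0.436 CPM and then 0.608, 0.423 and 1.15 CPM, at log2 values of -2.69 and -2.54 (edgeR adjusted p 0.00844 and 0.00819), and of -3.59 at 6 °C without replicate 2.

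The change from 25 °C itself differed between the cultivars for 22 members at 6 °C (11.2%; all genes 9.03%), 9 more positive and 13 more negative in Fantasy love. At 4 °C it differed for 18 (9.18%; all genes 8.9%), 9 each way. DN43741_c0_g2, a reverse transcriptase member, fell in Oregon from 8.7, 8.93 and 11 CPM to 1.21, 1.07 and 0.567 CPM at 6 °C. In Fantasy love it rose from 0, 0.485 and 0.0633 CPM to 1, 4.76 and 4.15 CPM and was back at 0.206 to 0.327 CPM at 4 °C. The responses at 6 °C differed by a log2 of 7.42 ± 1.11 (edgeR adjusted p 0.000588), and by 9.87 without replicate 2 of Fantasy love at 25 °C.

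DN57204_c0_g5, a gag member of 2451 bases, fell in Oregon from 5.54, 7.55 and 7.92 CPM to 0.957, 0.948 and 1.09 CPM at 4 °C. In Fantasy love it went from 0.823, 0.108 and 0.127 CPM to 0.795, 1.75 and 1.32 CPM, where the control and cold libraries overlapped. The responses differed by 4.63 ± 0.86 (edgeR adjusted p 0.00232), and by 6.15 without replicate 1 of Fantasy love at 25 °C.

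DN55458_c3_g3, an integrase member, measured 3.37 to 5.39 CPM in Oregon at 25 °C and 5.5 to 10.8 CPM at 6 °C, with no overlap. In Fantasy love it fell from 3.18 to 3.93 CPM to 0.327 to 0.669 CPM at 6 °C, 6.84-fold, again with no overlap. The responses differed by -3.52 ± 0.56 (edgeR adjusted p 0.00097). DN57391_c2_g1, with reverse transcriptase, went the other way at 4 °C: 0.299 to 0.474 CPM from 0.839 to 1.4 CPM in Oregon, and 2.01 to 5.07 CPM from 0.604 to 1.27 CPM in Fantasy love, a difference of 3.43 ± 0.67 (edgeR adjusted p 0.00353).

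**Figure D5:**
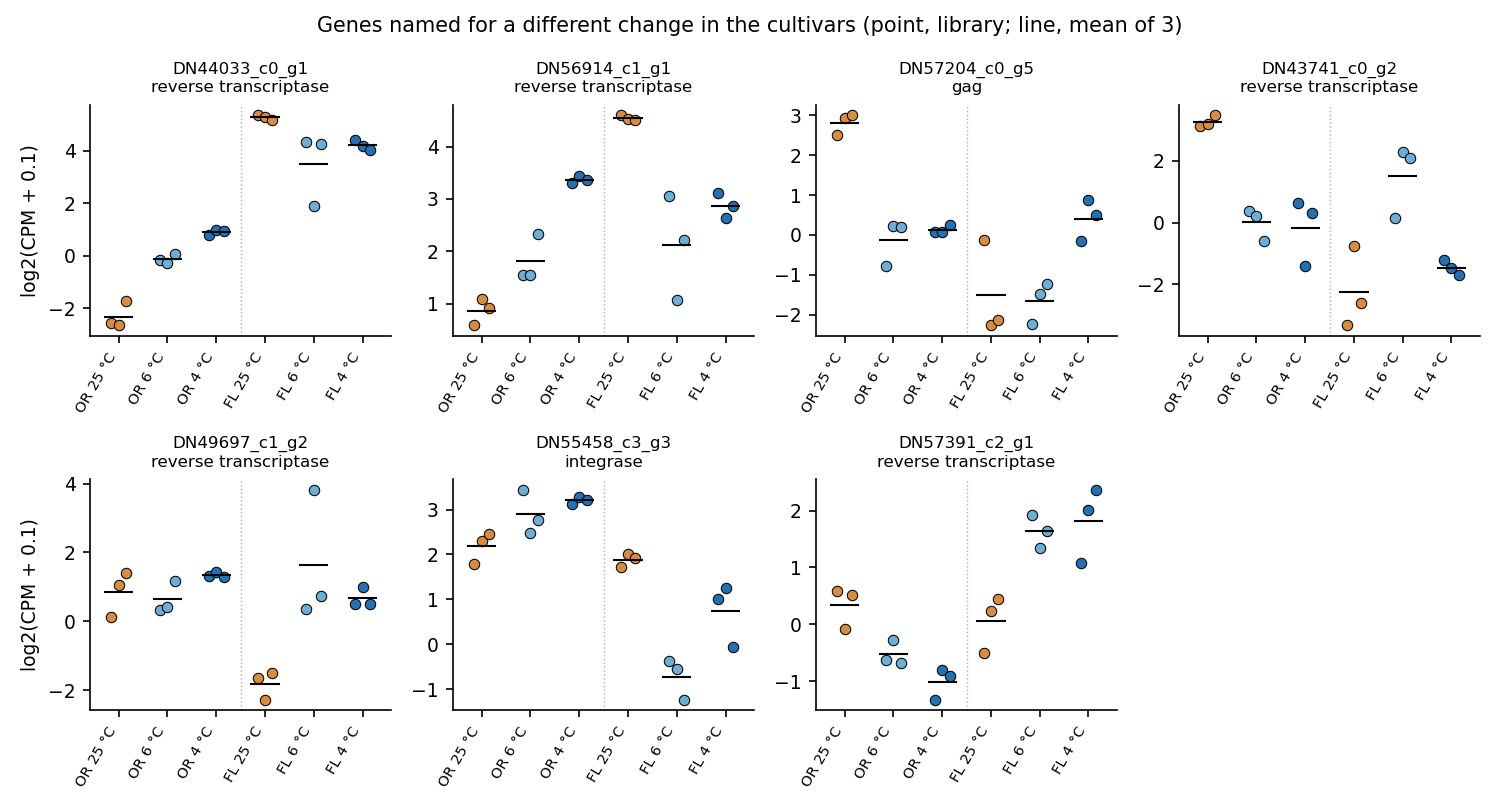
Level on a log2(CPM + 0.1) axis of 7 members that differed between Oregon (OR) and Fantasy love (FL) in level or in response to cold; points are libraries and lines the means of 3 at 25, 6 and 4 °C. DN44033_c0_g1 and DN56914_c1_g1 start higher in Fantasy love and converge, and DN43741_c0_g2 and DN57204_c0_g5 start higher in Oregon.

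The last cooling step changed few members. From 6 to 4 °C, 1 member rose and 2 fell in Oregon (1.53%; all genes 2.23%), and 6 rose and 7 fell in Fantasy love (6.63%; all genes 9.02%), or 4 and 3 without replicate 2 of the 6 °C group. In Oregon DN56914_c1_g1 rose by a log2 of 1.53 ± 0.38, DN55674_c2_g6, a gag member, fell from 8.93, 6.51 and 9.65 CPM to 0.598, 1.5 and 1.52 CPM, and DN57427_c2_g2 fell from 5.77 to 8.48 CPM to 2.69 to 3.59 CPM (edgeR adjusted p 0.0346, 0.0405 and 0.0443). These groups did not overlap, yet each call was lost on leaving out any 1 of the 6 libraries, except that DN56914_c1_g1 stayed called without replicate 3 at 6 °C. In Fantasy love DN55936_c1_g5 rose from 0.725, 1.09 and 1.8 CPM to 2.99, 3.6 and 6.23 CPM (log2 1.82 ± 0.42, edgeR adjusted p 0.00929), a call lost without replicate 3 at 4 °C, at 1.40. DN56141_c1_g1 was called lower at -4.48, a call lost without replicate 2 of the 6 °C group, at -1.80.

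Most members were found in both cultivars. At least 1 count was present in each cultivar for 303 of the 322, while 11 had none in the 9 Oregon libraries and 8 none in the 9 Fantasy love libraries. Among all genes, 4817 and 4754 had none. The 8 Oregon members had 12 to 49 counts over all libraries, so a low level in Fantasy love was not detectable at this depth. Of the 11 Fantasy love members, DN48818_c1_g1 had 305 counts and DN42743_c0_g5 had 139. The latter had none at 25 °C and measured 2.34, 0.966 and 0.273 CPM at 6 °C and 0.561, 1.32 and 1.65 CPM at 4 °C. Assembled genes of a component could differ by cultivar. DN41930_c3_g2 was detected mainly in Fantasy love, at 2.49 to 4.26 CPM at 4 °C, and DN41930_c3_g6 mainly in Oregon, at 2.81 to 4.58 CPM at 4 °C. Whether they are separate copies or cultivar forms of the same copy was not tested. The same limit holds for other members found mainly in a single cultivar.

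Other retroelement genes were set beside the members for scale. Of all genes, 28.3% rose and 20.1% fell in Oregon at 6 °C, and 28.4% and 20.6% at 4 °C. In Fantasy love it was 23.8% and 16.6% at 6 °C, and 28.5% and 21.6% at 4 °C. The median log2 changes over all genes were 0.36, 0.39, 0.30 and 0.39 in that order. Other Copia-type genes, 89 of 163 tested, rose and fell in 35 and 10 (39.3% and 11.2%) and 36 and 12 cases (40.4% and 13.5%) in Oregon at 6 and 4 °C. In Fantasy love it was 30 and 10 (33.7% and 11.2%) and 35 and 15 (39.3% and 16.9%). Their median log2 changes were 1.42, 1.13, 1.42 and 1.31. Gypsy-type genes, 247 of 475 tested, gave 94 and 15 (38.1% and 6.07%), 82 and 16 (33.2% and 6.48%), 54 and 26 (21.9% and 10.5%), and 77 and 25 (31.2% and 10.1%). Their medians were 1.42, 1.39, 0.59 and 0.88. LINE-type genes, 42 of 49, gave 12 and 5 (28.6% and 11.9%), 14 and 4 (33.3% and 9.52%), 13 and 7 (31.0% and 16.7%), and 16 and 7 (38.1% and 16.7%). Genes named for DNA transposon transposases, 40 of 44, gave 4 and 10 (10% and 25%), 3 and 9 (7.5% and 22.5%), 4 and 12 (10% and 30%), and 4 and 10 (10% and 25%). A difference between these lists and the TNT 1-94 members was not tested. The Gypsy-type DN55507_c1_g6, named for yeast Ty3-I, rose from 2.12 ± 0.56 CPM to 93.4 ± 9.83 and 37.1 ± 7.73 CPM in Oregon (SD, n = 3). In Fantasy love it rose from 1.34 ± 0.60 CPM to 16.5 ± 16.3 and 23.1 ± 3.93 CPM, so its level there at 6 °C varied widely.

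Silencing genes were set beside the members too. Of 70 tested genes for argonautes, dicers, RNA-dependent polymerases, DNA methyltransferases and their partners, 23 rose and 22 fell in Oregon at 6 °C (32.9% and 31.4%), 24 and 21 at 4 °C (34.3% and 30%), 20 and 13 in Fantasy love at 6 °C (28.6% and 18.6%), and 15 and 22 at 4 °C (21.4% and 31.4%). All genes gave 28.3% and 20.1%, 28.4% and 20.6%, 23.8% and 16.6%, and 28.5% and 21.6%. DN57374_c1_g1, named argonaute 2, which in Arabidopsis binds small RNAs in antiviral defence, rose from 8.03 ± 1.30 CPM to 1116 ± 214 and 982 ± 74.9 CPM in Oregon and from 6.93 ± 3.31 CPM to 268 ± 117 and 140 ± 25.7 CPM in Fantasy love (SD, n = 3). DN51710_c0_g1, a homolog of SUPPRESSOR OF GENE SILENCING 3, which helps make double-stranded RNA, rose from 15.8 ± 6.26 CPM to 1176 ± 381 and 1065 ± 315 CPM in Oregon. In Fantasy love it rose from 5.23 ± 2.44 CPM to 790 ± 496 and 130 ± 62.3 CPM (SD, n = 3). The argonaute 10 gene DN47372_c2_g3 fell from 19.9 to 6.72 and 2.34 CPM and from 38.9 to 8.02 and 1.81 CPM. Of 4 tested DNA demethylase genes none rose, and 2, 3, 3 and 3 fell by edgeR's test. DN46178_c0_g3, named ROS1 after the Arabidopsis enzyme that removes methylated cytosine, fell from 12.0 to 1.86 and 0.852 CPM in Oregon and from 15.2 to 1.30 and 1.11 CPM in Fantasy love, with edgeR adjusted p from 9.79e-06 to 0.000198.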

How the data were processed

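Leaf RNA of 2 cultivars at 3 temperatures was sequenced by the submitters in 18 libraries. Reads were trimmed with cutadapt 1.9, per the submitters' processing notes, and the identifiers are those of a Trinity assembly, per the file headers; the assembler's version and the counting tool were not given in the sources used here. The deposited table by the authors gives estimated counts per gene in each library, with TPM and transcript length beside them and annotation by Swiss-Prot, Pfam and other databases. TPM values, which the authors also deposited, were not used. Length was used as the authors deposited it, in bases.

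Estimated counts were rounded to whole numbers. Genes passed edgeR's filterByExpr (minimum count 10, minimum total 15), which left 51671, and a model of 6 group means over 18 libraries was fitted with TMM scaling and edgeR's quasi-likelihood test (edgeR 4.0.16). P-values were adjusted by Benjamini-Hochberg over all genes tested, and a call needed an adjusted p below 0.05 and an absolute log2 change of at least 1. Standard errors were derived from the fold change and the test's F. Cultivar differences in response were tested as interaction contrasts. CPM are counts over the TMM-scaled library size. A bound against a group with no counts sets that group to 3 counts in all, and intervals (95%) and bounds cover counting error only. The steps were tested on simulated data.

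The members and gene lists were chosen with earlier results of these data known. Genes are named by rule: the 10 of highest mean CPM, for each comparison of 2 groups the 3 largest rises and falls without overlap and with at least 1 CPM in the higher group, and for each interaction the 2 of lowest adjusted p each way. DN57430_c1_g1 and other genes outside the set have the highest mean CPM of their list or the lowest adjusted p among its called genes in a cold comparison. A few members outside the rule were chosen after their values were seen. No sequence of a member was given in the files used here, and none is printed. Alternatives were DESeq2 size factors and Wald test, quantile normalisation with limma, other filters, fewer groups, a replicate block, longer members, and each library left out.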

Additional observations from a re-analysis of the deposited data

Results flagged for a closer look

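The members below are part of those that responded to cold differently in the cultivars by the interaction test of edgeR over all genes. That test called 22 members at 6 °C and 18 at 4 °C. Values are the log2 change in Fantasy love minus that in Oregon, and no explanation was tested. Called members not listed include DN42768_c0_g1, at -3.29 and -3.55 at 6 and 4 °C (edgeR adjusted p 0.00349 and 0.00172). Of the 23 differences listed, 12 stayed called with each library left out in turn and 11 were lost at least once. These counts do not cover the calls not listed.

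At 6 °C the change was more positive in Fantasy love for DN43741_c0_g2 at 7.42 (adjusted p 0.000588), DN39379_c3_g1 at 7.32 (0.0245), DN41930_c3_g2 at 5.35 (0.0162), DN49697_c1_g2 at 5.08 (0.00755), DN57391_c2_g1 at 2.61 (0.0197) and DN57430_c0_g1 at 1.70 (0.0164). The value of DN49697_c1_g2 rests partly on replicate 2 of Fantasy love at 6 °C, at 14.1 CPM against 1.17 and 1.58 CPM, and was 3.08 without it. DN39379_c3_g1 had no counts in the Fantasy love controls, so its fitted value is no bound.

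At 6 °C the change was more negative in Fantasy love for DN55674_c2_g6 at -5.64 (adjusted p 0.0303), DN44033_c0_g1 at -4.29 (0.00236), DN55458_c3_g3 at -3.52 (0.00097), DN56914_c1_g1 at -3.24 (0.00134), DN49740_c0_g1 at -3.18 (0.0143), DN55936_c1_g5 at -2.16 (0.0307) and DN57427_c2_g2 at -2.10 (0.0105). Without replicate 1 of Fantasy love at 6 °C, DN56914_c1_g1 gave -3.86, and without replicate 3 of Oregon at 25 °C, DN44033_c0_g1 gave -4.97. The calls of DN57391_c2_g1, DN39379_c3_g1, DN55674_c2_g6 and DN55936_c1_g5 held in 7, 6, 7 and 3 of the 12 omissions.

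At 4 °C the change was more positive for DN50280_c2_g8 at 9.19 (adjusted p 0.0449), DN41930_c3_g2 at 4.84 (0.0122), DN57204_c0_g5 at 4.63 (0.00232), DN43741_c0_g2 at 3.83 (0.0443) and DN57391_c2_g1 at 3.43 (0.00353). DN50280_c2_g8 had no counts in the Fantasy love controls, and its level at 4 °C exceeded them at least 56.2-fold. The calls of DN43741_c0_g2 and DN50280_c2_g8 held in 1 and 2 of the 12 omissions, and DN43741_c0_g2 gave 6.20 without replicate 2 of Fantasy love at 25 °C.

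It was more negative at 4 °C for DN41930_c3_g6 at -7.82 (adjusted p 0.0291), whose Oregon controls had no counts and whose call held in 5 of the 12 omissions, DN44033_c0_g1 at -5.02 (0.000425), DN56914_c1_g1 at -4.22 (0.000126), DN49740_c0_g1 at -3.36 (0.00922) and DN55458_c3_g3 at -2.11 (0.0177). Without replicate 3 of Oregon at 25 °C, DN44033_c0_g1 gave -5.76.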

How the results depend on the processing

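Under quantile normalisation with limma the balance of rises and falls turned in Fantasy love, from 45 and 36 to 31 and 44 at 6 °C and from 56 and 34 to 42 and 44 at 4 °C. No called value of a named member changed sign under the alternatives run; the uncalled DN45291_c2_g1 in Fantasy love at 6 °C went from 0.15 to -0.46 without replicate 2. Of 99 values for named members, 81 kept their call throughout and 18 did not. The causes of the moves below were not tested.

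A filter of 50 counts in 3 libraries, which tests fewer genes, left 51 and 53 members called in Oregon at 6 and 4 °C, 52 in Fantasy love at 6 °C and 32 between the cultivars at 4 °C. Fitting only the groups compared, with fewer libraries, gave 40 in Fantasy love at 6 °C, 21 from 6 to 4 °C in Oregon, 0 from 6 to 4 °C in Fantasy love by edgeR (32 at an unadjusted p under 0.05 in the model of all groups), 36 between the cultivars at 6 °C and 33 for the interaction at 4 °C. DESeq2's Wald test gave 9 and 20 for the last cooling step in Oregon and Fantasy love and 35 for the interaction at 4 °C. Quantile normalisation gave 11 for that step in Oregon and 35 and 32 for the interactions at 6 and 4 °C. Same-numbered libraries did not pair, with 18 correlations of -0.066 to 0.104. With a replicate block, 8 were called from 6 to 4 °C in Fantasy love instead of 13, and no other count moved by over 1.5 times.

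Leaving out each library in turn gave 0 to 1 calls for the last step in Oregon (3 with all, and 25 at an unadjusted p under 0.05), where each library of the 2 groups mattered. It gave 4 to 20 for that step in Fantasy love, with 4 without replicate 3 at 4 °C, 5 without replicate 1 or 2, 7 without replicate 2 and 20 without replicate 1 at 6 °C. It gave 42 to 69 between the cultivars at 6 °C, lowest without Oregon replicate 2, and 29 to 40 at 4 °C, lowest without Oregon replicate 3. The interactions gave 12 to 27 at 6 °C, with 12 and 14 without Oregon replicates 3 and 1 and 14 without Fantasy love control replicate 2, and 11 to 16 at 4 °C, with 11 without Oregon control replicate 2.

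As unscaled CPM of the raw total the summed level was 605, 948 and 884 in Oregon at 25, 6 and 4 °C and 1070, 604 and 704 in Fantasy love. Over members with retroelement words elsewhere, an alternative chosen after seeing the data, it was 608, 728 and 657 CPM in Oregon at 25, 6 and 4 °C and 409 and 428 CPM in Fantasy love at 6 and 4 °C. On that set the Oregon control and cold libraries overlapped. Members under about 1 CPM rest on few counts, which limits their folds.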
